A study of Rattus norvegicus with 9 samples.

Results

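The genes described here are 7 that encode steroid hormone receptors and their FKBP cochaperones: Esr1, Esr2, Pgr, Nr3c1, Nr3c2, Fkbp4 and Fkbp5. They were chosen by name, with earlier results of these data known. Of these, 7 of 7 were found among 15163 named genes on the arrays, with 11 of 30356 probes. The samples were prostates of male Sprague Dawley rats, 6 weeks old at the start, with 3 arrays in each of 3 groups. Sham rats underwent a sham operation and received corn oil injections and distilled water by mouth. BPH rats, a model of benign prostatic hyperplasia, were castrated and injected with dihydrotestosterone (3 mg/kg daily) for 4 weeks, with oral vehicle. BPH+ghrelin rats were treated like BPH rats, and received oral ghrelin (20 nmol/kg daily) during 2 weeks. Castration and dihydrotestosterone came together in both BPH groups, so that the effects of each cannot be told apart. The sources used here name neither the lobe of the prostate nor the animals chosen for the arrays. The receptor of dihydrotestosterone itself is not analysed here.

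Steroid receptors are transcription factors that are switched on by their hormone. Esr1 and Esr2 encode estrogen receptors alpha and beta, Pgr encodes the progesterone receptor, Nr3c1 the glucocorticoid receptor and Nr3c2 the mineralocorticoid receptor. Before the hormone arrives, these receptors are held by HSP90 together with p23 and an immunophilin. Fkbp4 encodes FKBP52, an immunophilin that raises hormone binding and carries receptors towards the nucleus. Fkbp5 encodes FKBP51, which competes with FKBP52 for HSP90 and lowers the sensitivity of the glucocorticoid receptor. Fkbp5 is also a well-known target gene of glucocorticoids and other steroids, while cochaperone genes are often controlled by heat shock factors. In the prostate, estrogen receptor alpha is known mostly from the stroma and estrogen receptor beta from the epithelium.

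The promoters of both immunophilins and of Hsp90ab1, the chaperone whose array pattern was among those most similar to Fkbp4, are shown here, because the data below set these 3 genes side by side. Each sequence holds the 250 bases upstream of the transcription start in RefSeq (GRCr8), 5′ to 3′ on the strand of the gene. Capitals mark a pair of inverted heat shock trimers, with the letters GAANNTTC or TTCNNGAA.
Fkbp4 (chr4:163397919-163398168, minus strand): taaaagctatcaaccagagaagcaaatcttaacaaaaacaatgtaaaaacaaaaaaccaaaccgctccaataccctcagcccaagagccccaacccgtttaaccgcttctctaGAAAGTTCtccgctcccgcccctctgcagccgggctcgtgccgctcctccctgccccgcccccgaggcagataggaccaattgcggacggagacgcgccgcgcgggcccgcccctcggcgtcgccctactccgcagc
Fkbp5 (chr20:6543556-6543805, minus strand): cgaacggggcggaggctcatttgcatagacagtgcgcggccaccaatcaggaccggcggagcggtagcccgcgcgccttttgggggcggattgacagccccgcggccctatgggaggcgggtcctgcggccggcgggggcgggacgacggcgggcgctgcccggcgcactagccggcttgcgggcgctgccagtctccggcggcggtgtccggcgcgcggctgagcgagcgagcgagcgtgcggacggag
Hsp90ab1 (chr9:22930173-22930422, plus strand): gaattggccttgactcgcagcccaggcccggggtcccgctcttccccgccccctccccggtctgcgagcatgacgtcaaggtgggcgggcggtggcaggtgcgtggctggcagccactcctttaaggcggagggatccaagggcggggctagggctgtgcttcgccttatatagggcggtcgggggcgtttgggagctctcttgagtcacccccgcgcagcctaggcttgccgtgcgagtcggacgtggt
Fkbp4 held 1 match to GAANNTTC, 137 bases upstream of the start, and these letters are found in 7.23% of all 33465 promoters of this length. Neither Fkbp5 nor Hsp90ab1 held these letters in this window, and none of the 3 held TTCNNGAA, which is found in 7.48% of promoters. The hexamer TGTTCT, part of the steroid response element, was searched on both strands, was found in none of the 3 windows, and is present in 17.5% of promoters. GC boxes (GGGCGG, both strands, present in 30.5% of promoters) were found 3 times in Fkbp4, 3 times in Fkbp5 and 5 times in Hsp90ab1. These matches describe letters in a window and no binding was measured.

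The arrays were single-colour Agilent arrays, and values are log2 signals after quantile normalization. A probe was counted as measured on an array if the scanner software marked it as well above background. This applied to 61.3% of probes on sham replicate 2 and to 69.5% to 75.03% on the other 8 arrays, and the median raw signal was 40.9 on sham replicate 2 compared to 73.3 to 133 on the others. Among 20964 probes, BPH replicate 2 was intermediate to the remaining BPH arrays at 72.0%. The same was seen at 69.7% for BPH+ghrelin replicate 2, and at 74.4% for sham replicate 3, but only at 9.36% to 16.7% for the remaining arrays. These 3 are referred to as in-between arrays. P-values and intervals assume independent arrays. Whether the arrays of a group came from independent animals could not be settled. If not, intervals could be too narrow and p-values too small. The header's scan times placed the BPH arrays and BPH+ghrelin replicate 1 in 1 scan, BPH+ghrelin replicates 2 and 3 with sham replicates 1 and 2 in another, and sham replicate 3 alone. No scan held both BPH and sham arrays, so that no value within a scan can be given for this comparison. In fits with the scan as a block, BPH and sham were therefore linked only indirectly, through BPH+ghrelin arrays. Both comparisons with BPH rest in these fits on the 1 BPH+ghrelin array of the BPH scan, replicate 1. Pbsn (probasin), a marker of the prostate, was 16.2 to 16.4 in sham, 13.1 to 14.1 in BPH and 14.3 to 14.5 in BPH+ghrelin. Markers of the seminal vesicle and coagulating gland were also seen, with a summed log2 level of 16.5 to 17.3 in sham, 9.49 to 14.8 in BPH and 9.10 to 11.9 in BPH+ghrelin.

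Compared to sham, the 5 members that could be tested had mean differences in BPH of 0.73 (Fkbp4), 0.50 (Nr3c2), 0.21 (Nr3c1), −0.32 (Esr2) and 0.01 (Fkbp5) on the log2 scale, by the brightest probe of each. None of these differences passed the threshold. Esr1 and Pgr were not well above background on any array. A gene was called changed if the adjusted p (limma, Benjamini-Hochberg adjustment over all genes tested) was under 0.05. In BPH compared to sham, 0 of 5 members tested were called (limma), while 849 of 19548 genes (4.34%) were called. An unadjusted p under 0.05 was seen for 1 of the 5 members and for 26.5% of all genes. This count was 3 if probes of each gene were averaged, 2 with scaling to the 75th percentile, normexp background correction, without BPH replicate 3 or without sham replicate 2, and 0 with the scan as a block or without the in-between arrays. Between BPH+ghrelin and BPH, likewise 0 of 5 members were called (limma), where 293 of 19747 genes (1.48%) were called, and 0 members compared to 21.1% of all genes had an unadjusted p under 0.05, with 1 member under the 75th percentile, normexp or the mean of the probes, and 2 without BPH replicate 3. Between BPH+ghrelin and sham, 0 of 5 members were called (limma), where 1207 of 19195 genes (6.29%) were called, and 0 members compared to 23.7% of all genes had an unadjusted p under 0.05. With 3 arrays per group, an exact two-sided permutation test of a single gene cannot give a p below 0.1.

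**Figure D1:**
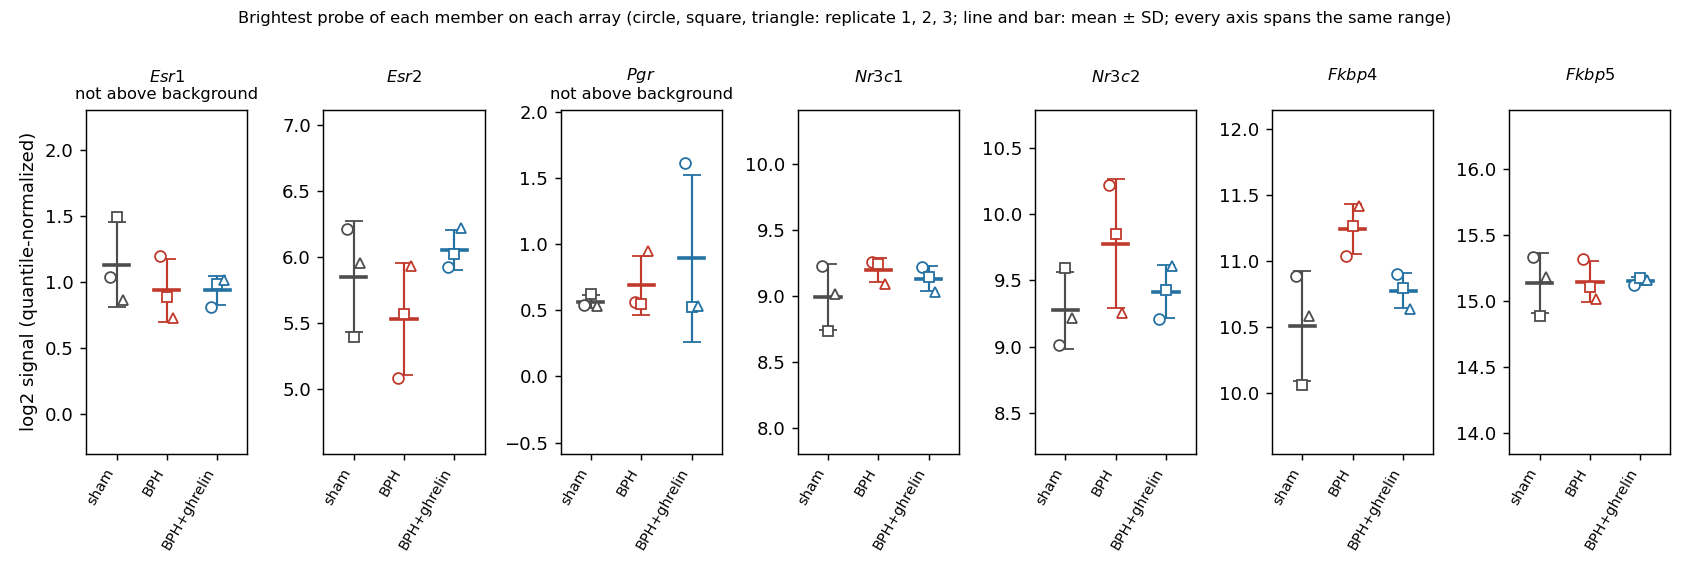
Log2 signal (y axis) of the brightest probe of each member on each of the 9 arrays, by group (x axis), with mean ± SD, every panel spanning the same range. Fkbp4 is the only one of the 5 measured members whose BPH arrays lie above all sham arrays, and Esr1 and Pgr were not well above background on any array.

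The probe for Esr1 (A_44_P401615) was well above background on 0 of 9 arrays. Its log2 signals were 1.04, 1.49 and 0.86 in sham, 1.19, 0.88 and 0.72 in BPH, and 0.81, 0.98 and 1.02 in BPH+ghrelin. All of these were below the lowest signal of any probe well above background, which ranged from 2.39 to 3.89 between arrays. Pgr (A_64_P067613) was also well above background on 0 of 9 arrays, with signals of 0.54, 0.62 and 0.53 in sham, 0.57, 0.55 and 0.95 in BPH, and 1.62, 0.53 and 0.53 in BPH+ghrelin. Each gene had 1 probe, and no level and no fold change are given. A probe without signal does not show that the mRNA was absent from the tissue.

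Esr2, in contrast, was measured by 3 probes. The brightest (A_64_P055962) gave log2 signals of 6.21, 5.39 and 5.95 in sham, 5.09, 5.57 and 5.93 in BPH, and 5.92, 6.02 and 6.22 in BPH+ghrelin. BPH was spread widely, and the groups overlapped in each comparison, although BPH replicate 3 exceeded BPH+ghrelin replicate 1 by little. The difference of Esr2 between BPH and sham was −0.32 (log2, SE 0.27, 95% interval −0.93 to 0.29, adjusted p = 0.453, limma). In BPH+ghrelin it was 0.52 higher than in BPH (SE 0.27, 95% interval −0.09 to 1.14, adjusted p = 0.299, limma), corresponding to 1.44-fold. Compared to sham, BPH+ghrelin was 0.20 higher (95% interval −0.41 to 0.81, adjusted p = 0.697, limma), and this turned to −0.03 without sham replicate 2, and was 0.38 without sham replicate 1 and 0.12 without BPH+ghrelin replicate 3. It was 0.07 with scaling to the 75th percentile, 0.10 with normexp, 0.32 with the scan as a block and 0.36 with the mean of the probes. The other two probes gave differences of 0.49 and 0.59 for BPH+ghrelin compared to BPH, close to the first, and −0.21 and 0.01 for BPH compared to sham. With the scan as a block, Esr2 differed by −0.07 between BPH and sham and by 0.39 between BPH+ghrelin and BPH. Both of these values rest on BPH+ghrelin replicate 1 as the link between scans. The difference between BPH and sham was −0.10 without BPH replicate 1, −0.53 without BPH replicate 3, −0.14 without sham replicate 1, −0.55 without sham replicate 2, −0.09 with normexp and −0.17 with the mean of the probes. That between BPH+ghrelin and BPH was 0.30 without BPH replicate 1 and 0.19 with normexp. At the dimmest of the 3 probes, BPH+ghrelin and BPH arrays did not overlap after quantile normalization, but overlapped with scaling to the 75th percentile.

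For Nr3c1, the glucocorticoid receptor, the brightest probe (A_44_P1003794) varied little. Log2 signals were 9.23, 8.73 and 9.01 in sham, 9.25, 9.24 and 9.09 in BPH, and 9.22, 9.14 and 9.03 in BPH+ghrelin. Sham replicate 2 was lowest, and the 3 groups overlapped. Nr3c1 was 0.21 higher in BPH than in sham (SE 0.15, 95% interval −0.14 to 0.55, adjusted p = 0.396, limma). BPH+ghrelin differed from BPH by −0.06 (95% interval −0.41 to 0.28, adjusted p = 0.834, limma) and from sham by 0.14 (adjusted p = 0.616, limma). The first of these turned to 0.04 with normexp background correction, and was −0.03 with scaling to the 75th percentile, −0.01 without BPH+ghrelin replicate 3, −0.11 without BPH+ghrelin replicate 1 and −0.12 without BPH replicate 3. Between BPH and sham, Nr3c1 differed by 0.08 without sham replicate 2, 0.32 without sham replicate 1, 0.07 with normexp and 0.08 with the scan as a block. The difference of Nr3c1 between BPH+ghrelin and sham was 0.01 without sham replicate 2 and 0.26 without sham replicate 1.

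A second, dimmer probe of Nr3c1 (A_64_P269447) showed a larger difference. Its log2 signals were 6.01, 5.10 and 5.54 in sham, 6.07, 6.28 and 6.51 in BPH, and 6.21, 6.07 and 5.78 in BPH+ghrelin. All BPH arrays were above all sham arrays, by 0.74 on average (SE 0.24), with an adjusted p of 0.112 (limma with probes in place of genes). BPH+ghrelin differed from sham by 0.47 and from BPH by −0.27, with overlap in both. Both probes agreed in direction for each comparison, but differed in size for BPH compared to sham, at 0.21 and 0.74. With the mean of the probes, Nr3c1 differed by 0.47 between BPH and sham, −0.17 between BPH+ghrelin and BPH and 0.31 between BPH+ghrelin and sham. It was not tested whether both probes detect the same transcripts.

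The brightest probe of Nr3c2, the mineralocorticoid receptor (A_43_P15261), gave 9.01, 9.59 and 9.22 in sham, 10.23, 9.85 and 9.26 in BPH, and 9.21, 9.42 and 9.61 in BPH+ghrelin. BPH ranged most widely, with replicate 3 at the level of the sham arrays. The difference between BPH and sham was 0.50 (SE 0.26, 95% interval −0.10 to 1.11, adjusted p = 0.255, limma). BPH+ghrelin differed from BPH by −0.36 (SE 0.26, 95% interval −0.97 to 0.24, adjusted p = 0.452, limma) and from sham by 0.14 (adjusted p = 0.788, limma). With the scan as a block, these 3 differences were 0.78, −0.57 and 0.22. Between BPH and sham, Nr3c2 differed by 0.28 without BPH replicate 1 and by 0.77 without BPH replicate 3, and between BPH+ghrelin and BPH by −0.14 and −0.62 without the same arrays. For BPH+ghrelin compared to sham, it differed by 0.01 without sham replicate 1, 0.30 without sham replicate 2, 0.25 without BPH+ghrelin replicate 1 and 0.04 without BPH+ghrelin replicate 3.

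Nr3c2 also had a second probe (A_64_P014537), close to background. It was well above background on 3 BPH arrays, 2 BPH+ghrelin arrays and 1 sham array. Log2 signals were 3.49, 2.54 and 2.53 in sham, 4.20, 3.79 and 3.83 in BPH, and 3.25, 3.49 and 2.82 in BPH+ghrelin. All BPH arrays were above the arrays of both other groups. BPH was 1.09 above sham (SE 0.29, adjusted p = 0.0731, limma with probes in place of genes), and BPH+ghrelin differed from BPH by −0.75 (SE 0.29, adjusted p = 0.197, same model). With the mean of the probes, Nr3c2 differed by 0.80 between BPH and sham (adjusted p = 0.0578, limma), by −0.56 between BPH+ghrelin and BPH and by 0.24 between BPH+ghrelin and sham. Since most sham signals of the second probe were not well above background, the size of these differences is uncertain.

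**Figure D2:**
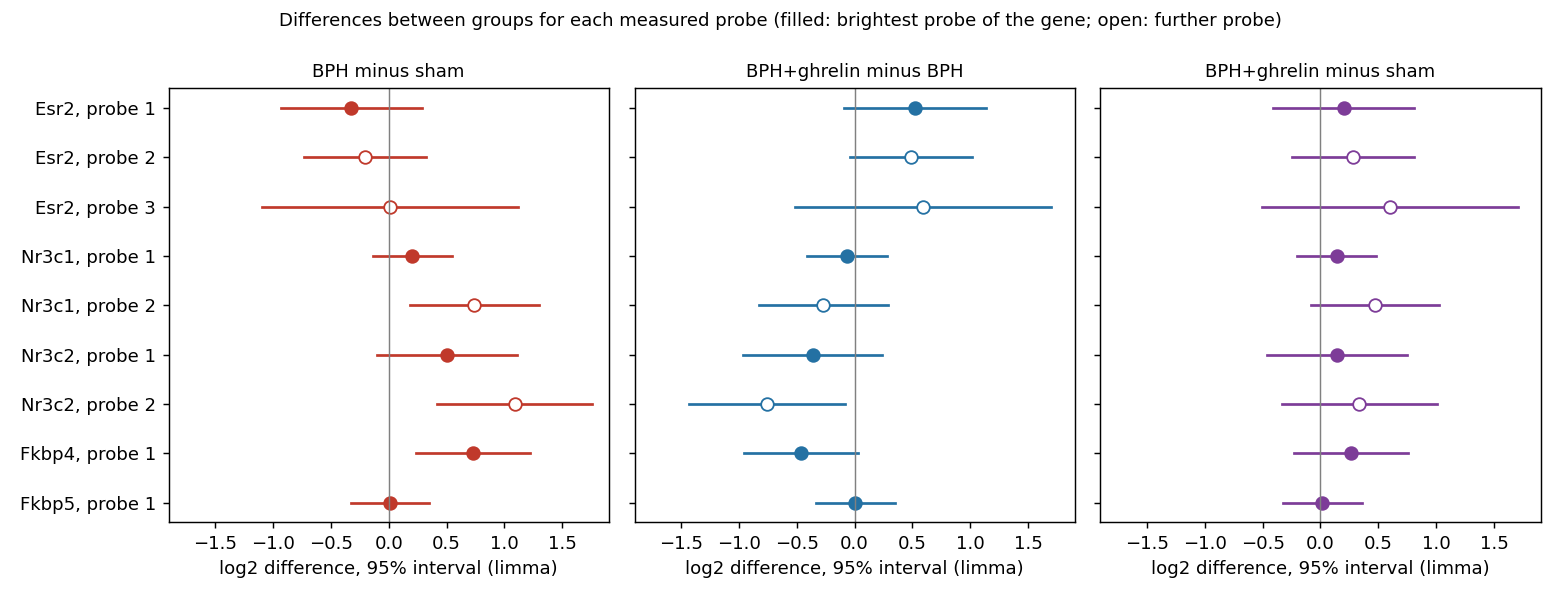
Log2 difference (x axis) with 95% interval for each of the 9 measured probes (y axis) in the 3 comparisons. The second probes of Nr3c1 and Nr3c2 sit at 0.74 and 1.09 for BPH minus sham, that of Nr3c2 being well above background on 1 sham array, while Fkbp5 lies near 0 in this scaling, but at −0.51 if arrays are scaled to their 75th percentile.

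Fkbp4, encoding FKBP52, was measured by 1 probe (A_44_P179282) on all arrays. Log2 signals were 10.89, 10.06 and 10.58 in sham, 11.04, 11.26 and 11.41 in BPH, and 10.90, 10.79 and 10.63 in BPH+ghrelin. In this scaling (quantile normalization), BPH arrays were the 3 highest of all 9 arrays, and did not overlap with sham or with BPH+ghrelin. The mean was 11.24 ± 0.19 in BPH (SD, n = 3), 10.51 ± 0.42 in sham and 10.78 ± 0.13 in BPH+ghrelin. Fkbp4 was 0.73 higher in BPH than in sham (SE 0.22, 95% interval 0.23 to 1.22, adjusted p = 0.0903, limma), which is 1.66-fold (1.18 to 2.33). Differences of greater size were seen in 16.3% of the genes tested. Arrays without overlap between both groups were seen in 1 of 5 members, Fkbp4, and in 31.3% of all genes.

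This comparison depended on single sham arrays. Without sham replicate 1, the difference was 0.92 and Fkbp4 was called (adjusted p = 0.0288, limma), while it was 0.50 without sham replicate 2 (adjusted p = 0.117, limma). Leaving out the in-between array of each group gave 0.75 with an adjusted p of 0.708 (limma, 2 arrays per group). With the scan as a block, it was 0.58 (SE 0.46, adjusted p = 0.939, limma).

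Between BPH+ghrelin and BPH, Fkbp4 differed by −0.46 (SE 0.22, 95% interval −0.96 to 0.03, adjusted p = 0.260, limma), being 1.38-fold lower after ghrelin. After quantile normalization, 1 of 5 members, Fkbp4, had arrays without overlap, compared to 39.2% of all genes, and this was lost with scaling to the 75th percentile. Within the scan that held both groups, BPH+ghrelin replicate 1 differed by −0.34 from the mean of the BPH arrays, and without this array the difference was −0.53. Compared to sham, Fkbp4 in BPH+ghrelin was 0.26 higher (95% interval −0.23 to 0.76, adjusted p = 0.505, limma) with overlap, and 0.24 higher within the scan that held both. It was 0.04 without sham replicate 2 and 0.45 without sham replicate 1. Without overlap in this comparison were 0 of 5 members, compared to 30.4% of all genes. Both comparisons with BPH share the BPH arrays.

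Fkbp5, encoding FKBP51, gave signals of 15.34, 14.89 and 15.18 in sham, 15.32, 15.11 and 15.02 in BPH, and 15.12, 15.18 and 15.16 in BPH+ghrelin (probe A_44_P532249). The groups overlapped, and the BPH+ghrelin arrays were nearly identical (SD 0.03). After quantile normalization, differences were 0.01 for BPH compared to sham (95% interval −0.33 to 0.35, adjusted p = 0.968, limma), 0.01 for BPH+ghrelin compared to BPH (95% interval −0.33 to 0.35, adjusted p = 0.987, limma) and 0.02 for BPH+ghrelin compared to sham (95% interval −0.32 to 0.36, adjusted p = 0.958, limma). In this scaling, the interval for BPH compared to sham covers 0.797-fold to 1.28-fold.

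This was different if each array was scaled to its own 75th percentile instead. Fkbp5 was then 6.45, 6.74 and 6.55 above the percentile in sham, 6.19, 6.01 and 6.00 in BPH, and 6.38, 6.57 and 6.74 in BPH+ghrelin. All BPH arrays were below the arrays of both other groups. The difference between BPH and sham became −0.51 (SE 0.15, adjusted p = 0.0805, limma), and that between BPH+ghrelin and BPH became 0.50 (SE 0.15, adjusted p = 0.0935, limma). This scaling moved the median difference of all genes from 0.04 to −0.09 in BPH compared to sham, and from 0.02 to 0.10 in BPH+ghrelin compared to BPH. Fkbp4 kept its direction, with 0.63 in BPH compared to sham and −0.29 in BPH+ghrelin compared to BPH, but BPH+ghrelin replicate 1 (2.22 above the percentile) then exceeded BPH replicate 1 (2.21). The comparison of Fkbp5 between BPH and the other groups thus depended on the scaling, and which scaling is closer to the tissue was not tested.

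**Figure D3:**
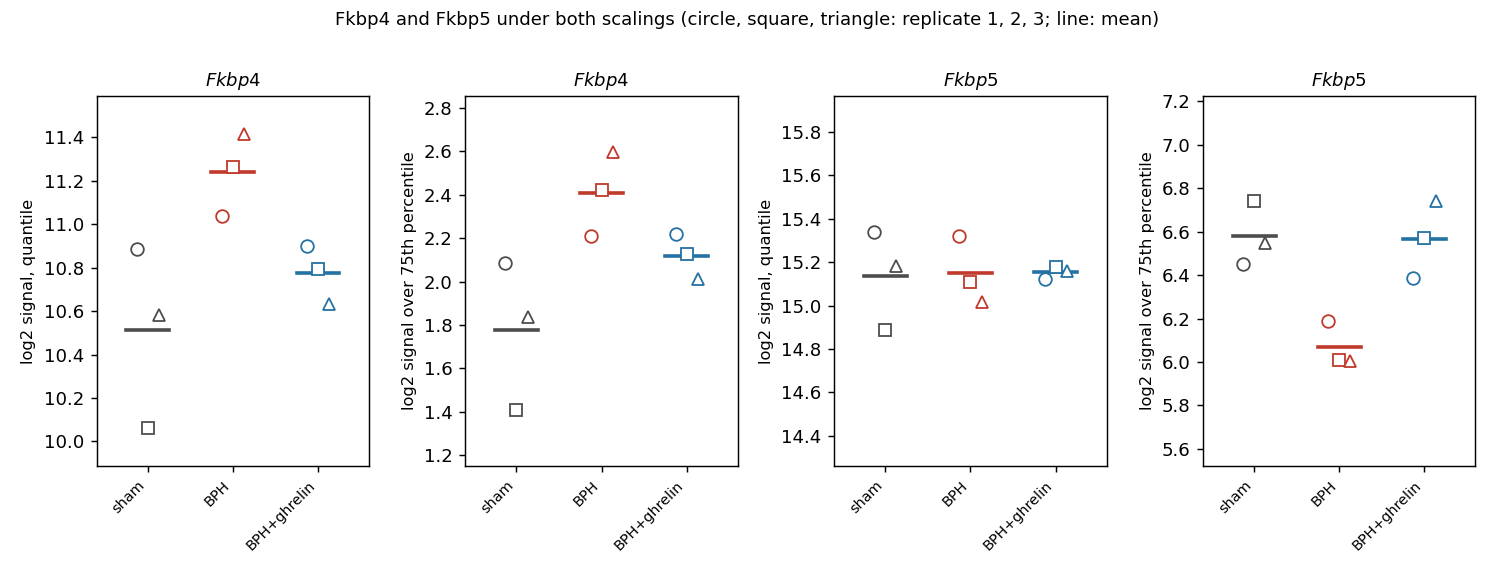
Log2 signal of Fkbp4 and Fkbp5 (y axis) by group (x axis) on each array after quantile normalization and over the 75th percentile of the array, each panel spanning the same range. The mean of Fkbp4 is highest in BPH in both scalings, with BPH and BPH+ghrelin arrays overlapping over the percentile, while Fkbp5 overlaps after quantile normalization and is lowest in BPH (6.00 to 6.19) over the percentile.

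Genes with the pattern most similar to each member were sought by Pearson correlation across the 9 arrays among 11090 genes. For Fkbp4, Hsp90ab1, encoding HSP90 beta, was among both genes with the highest coefficient (r = 0.992). Coefficients were 0.98 for Ptges3, encoding p23, and 0.83 for Hsp90aa1, encoding HSP90 alpha. The coefficient was −0.90 for the ubiquitin ligase Stub1, and Ptges3, Hsp90aa1 and Stub1 were chosen after their values were seen. Of 20 genes of the HSP90 machinery, 2 correlated with Fkbp4 at r over 0.9, compared to 5.11% of 11089 genes, and their median r was 0.39 compared to 0.15. The same 20 genes had a median r of −0.25 with Fkbp5. These values are descriptive, because the arrays share groups, scans and scaling. Sham replicate 2, the array with the lowest median raw signal, was lowest for Fkbp4, Hsp90ab1, Ptges3 and Hsp90aa1 and highest for Stub1. Coefficients without this array were not computed.

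The closest genes were Adam32 (r = 0.978) and Gca (r = 0.955) for Esr2, and Bcl10 (r = 0.987) and Klhl21 (r = 0.984) for Nr3c1. For Nr3c2 they were Nek8 and Pmvk (both r = 0.974), and for Fkbp5 Flcn (r = 0.961) and Rab31 (r = 0.958). Among the members, Nr3c1 ran with Fkbp4 (r = 0.79) and with Fkbp5 (r = 0.73), and Esr2 ran against Nr3c2 (r = −0.79). Sham replicate 2 held the lowest value of each of Nr3c1, Fkbp4 and Fkbp5 (8.73, 10.06 and 14.89). Fkbp4 and Fkbp5 had an r of 0.31. The other 6 pairs lay between 0.03 and 0.16.

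In the HSP90 machinery around the receptors, 2 of 20 genes tested were called higher in BPH than in sham and 0 lower, where 4.34% of all genes were called. Of 22 genes listed, these 20 had 16 values above 0 and 4 below, with a median of 0.35 compared to 0.04 for all genes, and 9 of 20 had an unadjusted p under 0.05 compared to 26.5% of all genes. In this and the following lists, counts of called genes stand against the 4.34%, 1.48% and 6.29% of all genes given above for the 3 comparisons. Called were Ppp5c, encoding a phosphatase bound to HSP90 (1.31, SE 0.24, adjusted p = 0.0288, limma), and Hsp90aa1 (0.86, SE 0.19, adjusted p = 0.0453, limma). Hsp90aa1 was 12.78, 12.75 and 12.77 in sham, 13.18, 13.76 and 13.96 in BPH, and 13.14, 13.11 and 13.11 in BPH+ghrelin. After quantile normalization, sham and BPH+ghrelin arrays were thus tightly grouped, with BPH above both. BPH ranged more widely, and its replicate 1 (13.18) exceeded BPH+ghrelin replicate 1 (13.14) by little. Hsp90ab1 was 12.26, 11.14 and 11.81 in sham, 12.45, 13.02 and 13.18 in BPH, and 12.25, 12.17 and 11.91 in BPH+ghrelin. Its difference of 1.15 between BPH and sham did not pass the threshold (SE 0.30, adjusted p = 0.0688, limma). The calls of Ppp5c and Hsp90aa1 rested on single arrays, as the number of genes called ranged from 0 (without BPH replicate 2, BPH replicate 3 or sham replicate 3) to 4 (without BPH replicate 1 or sham replicate 1), with 1 without sham replicate 2. It was 0 without the in-between array of each group. The median remained above 0 in all of these settings, and was 0.19 with scaling to the 75th percentile.

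After ghrelin, compared to BPH, 8 of the 20 genes were higher and 12 lower, and 0 were called (limma), with 4 of 20 at an unadjusted p under 0.05, all lower, where the share of all genes was 21.1%. The median was −0.15, compared to 0.02 for all genes, but turned to 0.05 with scaling to the 75th percentile. Smallest p-values were those of Bag1, a nucleotide exchange factor of HSP70 (−0.43, SE 0.13, adjusted p = 0.122, limma), and Hsp90aa1 (−0.51, SE 0.19, adjusted p = 0.183, limma). Compared to sham, Ppp5c (1.05, adjusted p = 0.0424, limma) and Fkbpl (0.75, adjusted p = 0.0467, limma) were called higher in BPH+ghrelin, 0 were called lower, and the median was 0.28. Both calls were lost when any single BPH+ghrelin array, sham replicate 3 or the in-between arrays were left out, and with scaling to the 75th percentile, and 1 was lost without sham replicate 1. Probes of near-identical genes such as Hsp90aa1 and Hsp90ab1 may share signal.

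**Figure D4:**
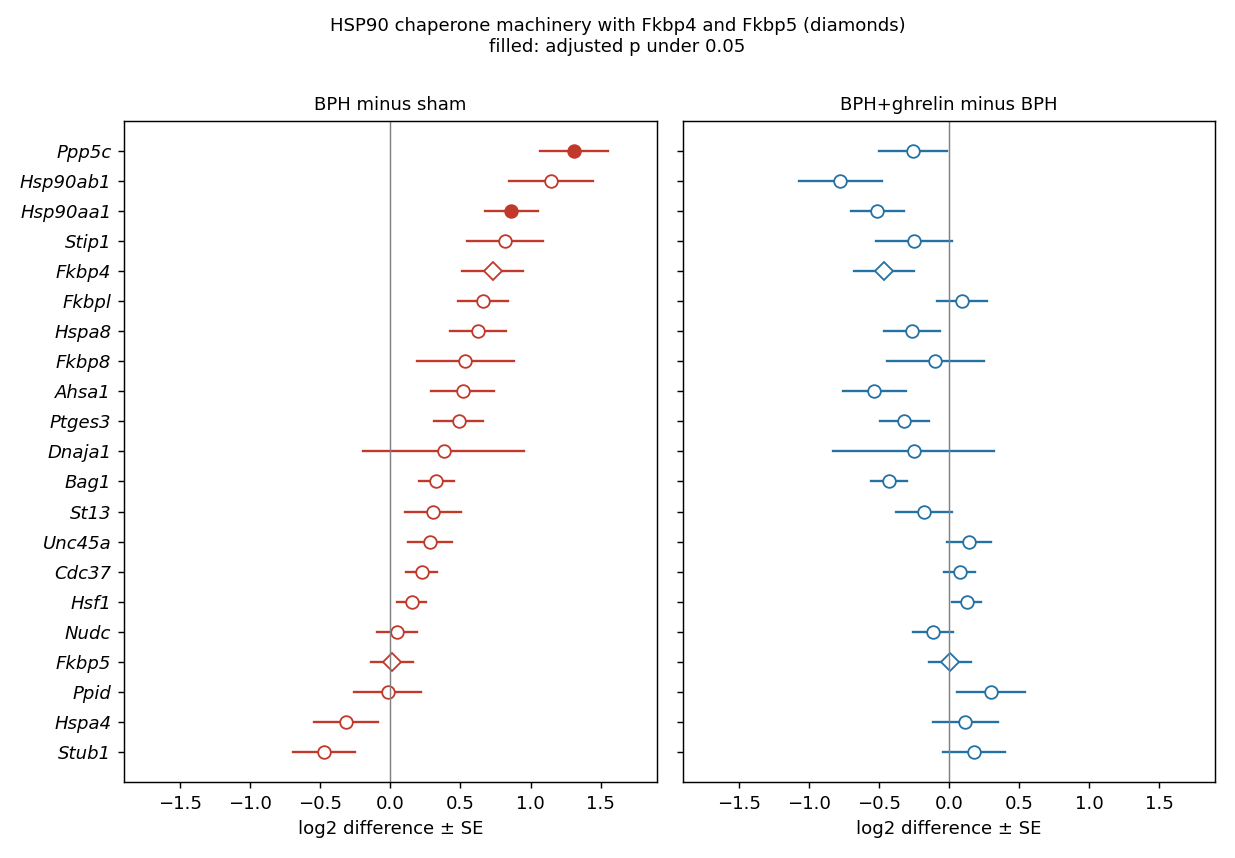
Log2 difference ± SE (x axis, quantile-normalized) of genes of the HSP90 machinery with Fkbp4 and Fkbp5 (y axis), sorted by BPH minus sham. Ppp5c and Hsp90aa1 are filled as called, Fkbp4 stands at 0.73 among the higher genes, and the median of the list is 0.35 for BPH minus sham and −0.15 for BPH+ghrelin minus BPH, the latter turning to 0.05 with scaling to the 75th percentile.

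Markers of other cell types differed between the same groups. In BPH compared to sham, 2 of 11 prostate secretory genes were called lower, Pbsn (−2.65, adjusted p = 0.00191, limma) and Slc30a2 (−4.23, adjusted p = 0.0180, limma), and 1 higher. Their summed log2 level was 18.6 to 18.9 in sham, 18.2 to 18.5 in BPH and 18.0 to 18.4 in BPH+ghrelin. Of 9 striated muscle genes, 7 were lower in BPH, 3 of them called, among these Pvalb (−2.98, adjusted p = 0.000438, limma), with summed levels of 9.60 to 10.2 in sham and 8.75 to 9.49 in BPH. Called lower were also 3 of 6 seminal vesicle genes, 1 of 7 immune genes and 1 of 7 nerve and Schwann cell genes. All 5 basal epithelial genes tested were higher in BPH than in sham, 2 of them called, and their summed log2 level was 11.4 to 11.6 in sham, 11.96 to 12.6 in BPH and 12.6 in BPH+ghrelin. All 9 fibroblast genes tested were also higher in BPH than in sham, with 0 called (limma) and a median of 0.37. Their summed log2 level was 13.8 to 14.6 in sham. From BPH to BPH+ghrelin, all 9 smooth muscle genes had lower values, 1 of them called, with summed levels of 14.2 to 15.1 in BPH and 14.1 to 14.3 in BPH+ghrelin. Of 9 fibroblast genes, 8 were lower, 2 of them called, with 14.4 to 14.9 in BPH and 14.3 to 14.7 in BPH+ghrelin. Of 7 immune genes, 5 were lower in this comparison, 2 of them called, including Cd74 (−1.06, adjusted p = 0.0162, limma), with 15.3 to 15.5 in BPH and 15.1 to 15.5 in BPH+ghrelin. No basal, smooth muscle or fibroblast gene measured was below background throughout a group, while Aqp3 of the secretory list and Itgam of the immune list were well above background on 0 arrays. Adipocyte genes varied widely between arrays of a group. Their summed log2 level was 6.41 on BPH+ghrelin replicate 1 and 7.53 on sham replicate 1, compared to 10.5 to 12.3 on the other 7 arrays. All 4 tested had means in BPH above those in sham and in BPH+ghrelin, with 0 called (limma) and 0 at an unadjusted p under 0.05, and Lep was well above background on 0 arrays. BPH+ghrelin replicate 1 is the array on which the values within a scan for BPH+ghrelin and BPH rest. In BPH+ghrelin compared to sham, 4 of 11 secretory genes, 3 of 7 immune genes, 3 of 8 striated muscle genes and 4 of 6 seminal vesicle genes were called lower, the last including Svs3b, which entered the test only through its sham arrays. Called lower in this comparison were also 1 of 9 smooth muscle genes (all 9 with lower values), 1 of 9 fibroblast genes, 1 of 4 endothelial genes (all 4 with lower values) and 1 of 7 nerve and Schwann cell genes. Called higher were 2 of 5 basal genes and 1 secretory gene. Of 5 endothelial genes, 0 were called (limma) in both comparisons with BPH, with 2 at an unadjusted p under 0.05 in each. In whole tissue, fewer cells of a type and less RNA per cell cannot be told apart, and the part of these markers in the differences of the members, the chaperones and the other lists was not tested.

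Other FKBP immunophilins, which fold proteins in the cytosol, endoplasmic reticulum or mitochondria, formed a further list. Of 15 listed, 13 were tested, and 0 were called (limma) in BPH compared to sham (8 higher, 5 lower, median 0.14, 2 at an unadjusted p under 0.05 compared to 26.5% of all genes) and in BPH+ghrelin compared to BPH (7 higher, 6 lower, median 0.06, 4 at an unadjusted p under 0.05 compared to 21.1% of all genes). With the smallest p-values, Fkbpl differed by 0.66 (adjusted p = 0.0749, limma) and Fkbp1a by 0.67 (adjusted p = 0.179, limma) in the first comparison, and Fkbp9 by −0.45 (adjusted p = 0.136, limma) and Fkbp2 by 0.62 (adjusted p = 0.160, limma) in the second. Between BPH+ghrelin and sham, Fkbpl was called higher as above, and Fkbp9, a resident of the endoplasmic reticulum, was called lower (−0.60, SE 0.14, adjusted p = 0.0446, limma). Neither call held when any single BPH+ghrelin array, sham replicate 1, sham replicate 3 or the in-between arrays were left out.

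Among nuclear receptor coactivators and corepressors, 26 were listed and 17 tested, and the corepressor subunit Hdac3 was called in BPH compared to sham (0.94, SE 0.13, adjusted p = 0.0114, limma). It was the only one called, 11 being higher and 6 lower, with a median of 0.04, which equals that of all genes. This call was lost without BPH replicate 2, without sham replicate 3 and without the in-between arrays, while 3 genes were called without sham replicate 1 and 2 without sham replicate 2. From BPH to BPH+ghrelin, 0 of 17 were called (limma), with 4 at an unadjusted p under 0.05, all lower, compared to 21.1% of all genes, and a median of −0.09. Smallest p-values were those of Ddx5 (−0.43, adjusted p = 0.158, limma) and Hdac3 (−0.37, adjusted p = 0.171, limma). Hdac3 was also called higher in BPH+ghrelin compared to sham (0.57, adjusted p = 0.0446, limma), where the median of 16 genes was −0.04. This was lost when any single BPH+ghrelin array, sham replicate 3 or the in-between arrays were left out, while 2 genes were called without sham replicate 1.

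Target genes of the receptors were examined by lists from general knowledge, chosen with earlier results of these data known. Of 24 glucocorticoid target genes, 22 were tested, and Mt2A, encoding a metallothionein that binds zinc, was the only one called in BPH compared to sham (−4.24, SE 0.87, adjusted p = 0.0389, limma). The median of the list was −0.23, with 8 higher and 14 lower. The call of Mt2A was lost without BPH replicate 2, sham replicate 2 or sham replicate 3, and without the in-between arrays, while 4 genes were called without sham replicate 1. With ghrelin, compared to BPH, 0 of 22 were called (limma), with 4 at an unadjusted p under 0.05, compared to 21.1% of all genes, and a median of −0.07. Smallest p-values were those of Ddit4 (0.42, adjusted p = 0.158, limma), an inhibitor of mTOR, and Glul, the glutamine synthetase (−0.77, adjusted p = 0.194, limma). One gene was called without BPH replicate 3. Compared to sham, BPH+ghrelin had higher Tsc22d3, encoding the glucocorticoid-induced leucine zipper (0.64, adjusted p = 0.0480, limma), and lower Mt2A (−6.39, adjusted p = 0.00728, limma) and Glul (−1.46, adjusted p = 0.0292, limma), with a median of −0.12. Only 1 of these genes was called without BPH+ghrelin replicate 1, BPH+ghrelin replicate 2 or sham replicate 3, and 0 without the in-between arrays.

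Mineralocorticoid target genes included sodium channel subunits. In BPH compared to sham, 0 of 15 tested were called (limma), with 6 of 15 at an unadjusted p under 0.05, compared to 26.5% of all genes. In this list 10 were higher and 5 lower, with a median of 0.34. Scnn1g, the gamma subunit of the epithelial sodium channel, was among the genes with smallest p-values (0.86, SE 0.24, adjusted p = 0.0770, limma). In this list, 4 genes were called without sham replicate 1. Edn1, encoding endothelin 1, was called lower in BPH+ghrelin than in BPH (−1.79, SE 0.29, adjusted p = 0.0318, limma), and 9 of 15 genes were lower, with a median of −0.27. In total, 2 genes were called lower and 0 higher. Both calls were lost without BPH replicate 1, BPH replicate 2 or any BPH+ghrelin array, and without the in-between arrays, and 1 was lost without BPH replicate 3. Relative to sham, BPH+ghrelin showed higher Scnn1g (1.16, adjusted p = 0.0294, limma) and Tsc22d3, both called. Called lower were 2 genes, including Edn1 (−1.31, adjusted p = 0.0372, limma), and the median of the list was 0.09. The number called fell from 4 to 0 without BPH+ghrelin replicate 1, BPH+ghrelin replicate 2, sham replicate 3 or the in-between arrays, and to 2 without BPH+ghrelin replicate 3 or sham replicate 1.

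Of 18 estrogen target genes, 11 were tested, and 0 were called (limma) in BPH compared to sham, with 1 at an unadjusted p under 0.05 (26.5% of all genes), 8 higher, 3 lower and a median of 0.24. The 1 gene was Prlr, the prolactin receptor (0.98, SE 0.40, adjusted p = 0.172, limma). In BPH+ghrelin compared to BPH, 0 were called (limma), with 2 at an unadjusted p under 0.05 (21.1% of all genes) and a median of −0.11. The 2 genes were Cxcl12, a chemokine (0.56, adjusted p = 0.129, limma), and Igfbp4, which binds insulin-like growth factors (−0.72, adjusted p = 0.147, limma). Cxcl12 was called higher in BPH+ghrelin compared to sham (0.74, adjusted p = 0.0427, limma), where the list had a median of 0.24. Without BPH+ghrelin replicate 1, 2 or 3, sham replicate 1 or 3, or the in-between arrays, 0 were called in this comparison.

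Of 11 progesterone target genes, 8 were tested in BPH compared to sham. Bmp2, encoding a bone morphogenetic protein, was called higher (0.87, SE 0.14, adjusted p = 0.0202, limma), 6 were higher and 2 lower, with a median of 0.35. This call was lost without BPH replicate 2, BPH replicate 3 or sham replicate 3 and without the in-between arrays, while 2 genes were called without sham replicate 1. In BPH+ghrelin compared to BPH, 0 were called (limma), with a median of −0.37 that includes Ihh. Beside Ihh, 2 genes had an unadjusted p under 0.05, compared to 21.1% of all genes. Ihh, encoding Indian hedgehog, was well above background on 3 BPH arrays and 0 of 3 BPH+ghrelin arrays (at least 7.50-fold lower), so that it entered the test only through its BPH arrays, and its p is not read or counted here. Bmp2 differed by −0.47 (adjusted p = 0.132, limma). Wnt4, a secreted signal, was called higher in BPH+ghrelin compared to sham (1.42, SE 0.27, adjusted p = 0.0248, limma), where the list had a median of 0.24. This was lost without BPH+ghrelin replicate 1, BPH+ghrelin replicate 2, sham replicate 3 or the in-between arrays. Pgr itself was not measured above background in any of these groups.

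Enzymes converting corticosteroids, and related receptors, complete the set. Hsd11b2, which inactivates glucocorticoids and thereby protects the mineralocorticoid receptor, differed by 0.58 between BPH and sham (SE 0.18, adjusted p = 0.101, limma). Hsd11b1, which reactivates glucocorticoids, differed by −0.01 (SE 0.14, adjusted p = 0.974, limma). In all 3 comparisons, 0 of 3 enzymes were called (limma), with 1, 0 and 0 at an unadjusted p under 0.05 (26.5%, 21.1% and 23.7% of all genes). Of 6 related receptors, 3 were tested, and 0 were called (limma) in all 3 comparisons, with 1, 0 and 1 at an unadjusted p under 0.05. Pgrmc1, a membrane-associated progesterone-binding protein, differed by 0.66 between BPH and sham (SE 0.26, adjusted p = 0.158, limma). Esrra, the estrogen-related receptor alpha, differed by 0.13 (adjusted p = 0.637, limma).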

How the data were processed

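The authors deposited scanner intensity files of 9 arrays (Agilent Feature Extraction 11.0.1.1, protocol and background treatment per the file headers) and a table of processed log2 values with 30423 rows. According to its methods, the study used quantile normalization. Here, log2 of the processed signal was used without control spots, outlier spots were removed, spots of a probe were averaged, and arrays were quantile normalized. No spot was saturated. Probes were named by accession through RefSeq (GRCr8), which named 17998 of 30356 probes (59.3%). A gene was represented by its brightest probe after dropping probes with signal marked as well above background on fewer than 3 of 6 arrays. Groups were compared by limma 3.58.1 (R 4.3.3) in 1 model of 9 arrays. The number of arrays limits the precision, and nothing states which animals they came from.

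Members and gene lists were chosen with earlier results of these data known. Named were all members with each probe, in each list up to 3 called genes per direction or, without calls, the 2 with smallest p, and the 2 genes most similar to each member. A few genes that this rule names are not reported here, but are counted in their lists. The estrogen receptor target list, like all others, left out the members. Bounds (at least N-fold) use the lowest signal well above background on each array. Alternatives were the scaling, background correction, filter, probes of a gene, replicate number or scan as a block, the authors' value table and leaving out arrays. The scripts were tested on simulated data.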

Additional observations from a re-analysis of the deposited data

How the results depend on the processing

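The number of members called in BPH compared to sham was 0 under 14 of 15 alternatives, and ranged from 0 to 1 when single arrays were left out, the 1 being Fkbp4 without sham replicate 1. In both other comparisons, 0 members were called under all 15 alternatives. Leaving out the in-between array of each group was chosen after seeing the data, and left 3, 0 and 2 of all genes called, compared to 849, 293 and 1207. With the scan as a block, 2, 2 and 85 genes were called, and 0 members. When single arrays were left out, all genes called in BPH compared to sham ranged from 119 (without BPH replicate 2) to 3068 (without sham replicate 1), and in BPH+ghrelin compared to BPH from 3 (without BPH replicate 2) to 396 (without BPH replicate 3). Between BPH+ghrelin and sham, they ranged from 226 (without BPH+ghrelin replicate 2) to 1927 (without sham replicate 2). Scaling to the 75th percentile gave 897, 515 and 1327 genes, normexp 1015, 400 and 1225, and no filter on dim probes 533, 188 and 805. With the replicate block, 0 members and 242, 20 and 462 genes were called, and Fkbp4 in BPH compared to sham had 0.73 with an adjusted p of 0.14. Deviations of samples with the same number correlated between −0.14 and 0.31, the latter for replicate 1 of BPH+ghrelin and sham. Since not every pair exceeded 0.1, the numbers were not used to pair samples.

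Directions were kept under all alternatives for Fkbp4 and Nr3c2 in the 3 comparisons. For Fkbp5 in BPH compared to sham, 0.01 turned to −0.51 (75th percentile) and −0.00546 (normexp), and lay between −0.11 and 0.11 without single arrays, being −0.07 without BPH replicate 1 and −0.11 without sham replicate 2. In BPH+ghrelin compared to BPH, its 0.01 turned to −0.0243 (scan as a block) and −0.0272 (without the in-between arrays), and lay between −0.0593 (without BPH replicate 3) and 0.0912 without single arrays, being also below 0 without BPH+ghrelin replicate 2 or BPH replicate 2. Compared to sham, its 0.02 in BPH+ghrelin turned to −0.0149 (75th percentile), and lay between −0.106 (without sham replicate 2) and 0.118 without single arrays. Nr3c1 in BPH+ghrelin compared to BPH turned from −0.06 to 0.0428 (normexp) and 0.0247 (scan as a block). Esr2 in BPH+ghrelin compared to sham lay between −0.0280 (without sham replicate 2) and 0.382 without single arrays, compared to 0.20. The cause was not tested.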
